A study of Homo sapiens with 12 samples.

Results

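HERVL18-int is the internal part of an old human endogenous retrovirus of the ERVL family, and LTR18A, LTR18B and LTR18C are the long terminal repeats (LTRs) annotated with it. The elements were taken by name from tables of anti-V5 PAR-CLIP reads, keeping reads on the strand of the element. In all, 509 elements had such reads, of 1509971 elements of 6 transposable element classes. They comprised 237 HERVL18-int, 89 LTR18A, 154 LTR18B and 29 LTR18C elements. HERVL18-int was singled out for its lower counts with truncated ZC3H18 than with the full-length protein in these same libraries, so that contrast is described here without a test. Both the full-length and the truncated libraries entered that choice. For HERVL18-int, every comparison that uses either of them is therefore given as a description, and only Z18truncZnFmut against the control is given with a test.

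PAR-CLIP feeds cells a photoactivatable nucleoside, crosslinks protein to RNA with light and sequences the RNA that is pulled down with a tagged protein. The cells were A375, an established human melanoma line, transfected transiently and labelled from 24 h afterwards. The 4 V5-tagged constructs were Clover, a fluorescent protein used as the control, full-length ZC3H18 (Z18fl), truncated ZC3H18 (Z18trunc), and the truncated protein with its zinc finger aromatic residues mutated (Z18truncZnFmut). Each had 3 libraries. No deletion of the cells' own ZC3H18 is named for any group. The labels do not say whether libraries came from separate cultures, so p-values measure only the spread between these libraries, which may be technical. The tables hold repeat elements and no genes, so neither the markers of melanoma cells nor the transfected constructs could be checked in them. A pull-down measures bound RNA, in which more RNA in the cell and more binding per molecule cannot be told apart.

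An integrated retrovirus, or provirus, has an internal part that once coded for viral proteins, flanked by a pair of LTRs that were identical when it inserted. The LTRs carry the signals that start and end retroviral transcripts, and recombination between them often leaves a solo LTR. Most old copies lie in introns or between genes, where they can be transcribed as part of a longer host RNA. ZC3H18 is a zinc finger protein that links capped nuclear RNA to the machinery that degrades it.

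The 4 proviruses with the most reads are shown by their LTRs, because they account for much of the signal described below. Sequences are from hg38, on the strand of the element, 5′ to 3′. Capitals mark CTGTAAAAG, which all 8 LTRs of these proviruses held, and AATAAA, the canonical polyadenylation signal. The first 300 bases of both LTRs of the chromosome 2 provirus, on the minus strand, lie at chr2:78112114-78112413 and chr2:78105756-78106055. The 110-base windows around CTGTAAAAG in the 5′ LTRs of the other proviruses lie at chr9:7791687-7791796 on the minus strand, and at chr5:104186304-104186413 and chr4:25358751-25358860 on the plus strand.
chromosome 2, 5′ LTR18A: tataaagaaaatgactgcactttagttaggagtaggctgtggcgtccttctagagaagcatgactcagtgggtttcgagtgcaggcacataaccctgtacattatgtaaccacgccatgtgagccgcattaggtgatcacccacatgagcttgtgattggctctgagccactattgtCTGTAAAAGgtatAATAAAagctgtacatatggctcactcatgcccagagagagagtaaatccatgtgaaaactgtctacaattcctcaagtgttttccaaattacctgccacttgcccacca
chromosome 2, 3′ LTR18A: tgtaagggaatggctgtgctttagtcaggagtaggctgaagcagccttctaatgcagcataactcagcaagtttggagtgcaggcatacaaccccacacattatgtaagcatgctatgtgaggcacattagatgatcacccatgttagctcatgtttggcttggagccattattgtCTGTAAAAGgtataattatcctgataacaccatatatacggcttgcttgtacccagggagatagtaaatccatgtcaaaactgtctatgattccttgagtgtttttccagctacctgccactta
chromosome 9, 5′ LTR18B: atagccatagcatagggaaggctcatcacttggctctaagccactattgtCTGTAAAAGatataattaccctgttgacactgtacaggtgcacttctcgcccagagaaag
chromosome 5, 5′ LTR18A: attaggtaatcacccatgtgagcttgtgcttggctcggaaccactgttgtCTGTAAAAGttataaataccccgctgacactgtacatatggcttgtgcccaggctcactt
chromosome 4, 5′ LTR18A: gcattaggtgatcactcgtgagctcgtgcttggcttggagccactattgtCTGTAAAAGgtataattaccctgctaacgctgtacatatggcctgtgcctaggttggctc

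The LTRs of a pair had diverged. Over aligned bases without gaps, the pair on chromosome 2 was 78.8% identical, that on chromosome 4 83.9%, that on chromosome 5 84.3% and that on chromosome 9 87.1%. Searched on the strand of the element among elements of 250 to 650 bases, CTGTAAAAG was in 45.5% of 110 LTR18A and 46.6% of 189 LTR18B elements, in 0 of 35 LTR18C elements and in 0.165% of 41821 LTRs of other ERVL subfamilies. These letters were chosen after the sequences were seen, as the longest run that the 8 LTRs shared. AATAAA, searched the same way, was in 30.9% of LTR18A, 79.9% of LTR18B, 77.1% of LTR18C and 39.7% of other ERVL LTRs. Within the proviruses, it was in both LTRs on chromosome 9 and in the 5′ LTR on chromosome 2, while the LTRs on chromosomes 4 and 5 did not hold these letters.

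Aligned fragments ranged from 16683132 to 17673644 in the Clover libraries and from 21285347 to 25686948 in the other 9. Z18truncZnFmut replicate 3 stood apart, with 16.3% of its aligned fragments on these element classes against 6.28% to 9.59% elsewhere, and 318 of the HERVL18-int and LTR18 elements had reads in it against 65 to 149 in the others. The main subfamily-wide HERVL18-int values of that group are given with and without it, and single loci by library. Values under other processing settings, here and below, include it unless it was left out. Counts per 1000000 aligned fragments (CPM) describe levels, whereas the fits scale each library to its element counts (TMM) and so give changes relative to the other repeats. Against Clover, scaling by aligned fragments instead raised the median log2 fold change over all subfamilies from -0.01 to 0.45 for Z18fl, from -0.01 to 0.48 for Z18trunc and from 0.03 to 1.04 for Z18truncZnFmut.

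HERVL18-int RNA was more abundant with Z18fl than with any other construct, apart from 1 library. Clover libraries had 116, 112 and 89 HERVL18-int counts, and Z18fl libraries 489.5, 427 and 502. Z18trunc libraries had 198, 238 and 244.5 counts, and Z18truncZnFmut libraries 221, 203 and 491. The 491 counts came from Z18truncZnFmut replicate 3, the library that stood apart. In CPM, the level was 6.18 ± 1.01 (SD, n = 3) in Clover, 19.8 ± 1.28 with Z18fl, 9.50 ± 1.04 with Z18trunc and 13.0 ± 6.32 with Z18truncZnFmut, or 9.34 in the last without replicate 3. Neither the Z18fl nor the Z18trunc libraries overlapped those of Clover in CPM.

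**Figure D1:**
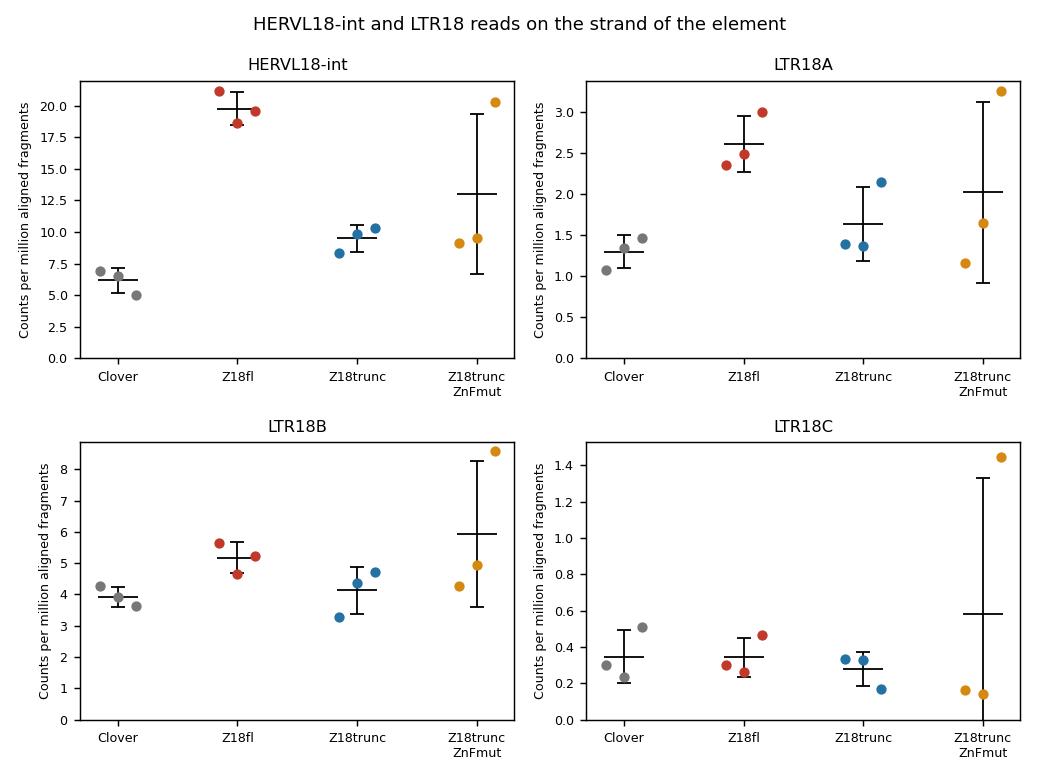
CPM (counts per 1000000 aligned fragments, linear axis) of HERVL18-int and the 3 LTR18 subfamilies, reads on the strand of the element, by construct. Points are libraries, long dashes the mean and bars the SD over 3 libraries. HERVL18-int averaged 19.8 with Z18fl against 6.18 with Clover, and the high Z18truncZnFmut point in each panel is replicate 3. The SD bar of LTR18C in that group would run below 0 and is clipped there.

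Relative to other repeats, HERVL18-int was 2.32-fold higher with Z18fl than with Clover, a fitted log2 fold change of 1.21 ± 0.11 (SE), the 5th highest of 500 LTR-class subfamilies. This value stands beside 20.1% of all subfamilies called higher in that comparison. The choice of HERVL18-int used the Z18fl libraries, so its rank is not independent of that choice. For Z18trunc against Clover its fitted log2 fold change was 0.13 ± 0.15, where 14.5% of subfamilies were called higher. For Z18truncZnFmut against Clover it was 0.14 ± 0.18 and did not pass the test (edgeR adjusted p = 0.70), where 1.3% were. Without Z18truncZnFmut replicate 3 that value was 0.27 ± 0.18 (edgeR adjusted p = 0.37). Z18truncZnFmut differed from Z18trunc by 0.05 ± 0.15, or 0.13 ± 0.14 without that library, and 0% of subfamilies were called in that comparison, 49 of 957 having an unadjusted p under 0.05 in edgeR. With library sizes from aligned fragments, the values against Clover were 1.68 for Z18fl, 0.62 for Z18trunc and 1.07 for Z18truncZnFmut, the last not past the threshold (edgeR adjusted p = 0.14). With reads on either strand, the Z18fl value was 0.20 and the Z18trunc value -0.33.

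The 3 comparisons with Clover share its libraries. Against Z18fl, the fitted log2 fold change was -1.11 for Z18trunc and -1.05 for Z18truncZnFmut. HERVL18-int was chosen on the first of these contrasts, and the other shares its Z18fl libraries, so no rank is given for them.

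The LTR18A and LTR18B subfamilies were lower in counts than the internal part and did not pass the test in any of the 4 comparisons tested. LTR18A had 18, 23 and 26 counts in Clover, 54.5, 57 and 77 with Z18fl, 33, 33 and 51 with Z18trunc and 28, 35 and 79 with Z18truncZnFmut. All 3 Z18fl libraries lay above all 3 Clover libraries in CPM. The log2 fold change of LTR18A for Z18fl against Clover was 0.53 ± 0.23 (edgeR adjusted p = 0.087), and with aligned fragments as library sizes it was 1.0 and passed (edgeR adjusted p = 0.0015). LTR18B had 71, 67 and 64 counts in Clover and 131, 107 and 134 with Z18fl, with a log2 fold change of -0.07 ± 0.14 (edgeR adjusted p = 0.74) that turned to 0.40 (edgeR adjusted p = 0.037) with aligned fragments as library sizes. In Z18trunc, LTR18B had 78, 106 and 112 counts, and its log2 fold change against Clover was -0.43 ± 0.18 (edgeR adjusted p = 0.10), turning to 0.07 with that scaling. LTR18C had 3 to 35 counts a library and was below the filter.

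The reads on HERVL18-int were spread unevenly over its loci. The highest locus held 16.9% ± 4.34 (SD, n = 3) of HERVL18-int counts in Clover, 22.5% ± 0.674 with Z18fl, 15% ± 2.96 with Z18trunc and 14.9% ± 3.15 with Z18truncZnFmut. The 5 highest held 43.0% ± 5.92, 44.2% ± 2.98, 42.7% ± 1.35 and 39.8% ± 12 in the same order, and the 10 highest 53.8% ± 5.01, 59.2% ± 0.485, 57.2% ± 3.89 and 48.8% ± 13.9. In Z18truncZnFmut replicate 3 the 10 highest held 32.8%, and without that library the Z18truncZnFmut means were 16.4%, 46.6% and 56.8% for the highest, the 5 highest and the 10 highest. Of the 237 HERVL18-int elements, 93 had reads in a single library and 9 in all 12. Without the highest locus, the subfamily's fitted log2 fold change for Z18fl against Clover was 1.11, and the described difference between Z18trunc and Z18fl was -0.98.

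The highest locus was HERVL18-int at chr2:78106057-78112068 on the minus strand, 6012 bases long and 18.1% diverged from its consensus. It lies in an intron of ENSG00000227088, a long noncoding RNA (lncRNA) gene, with another lncRNA gene, ENSG00000229494, on the opposite strand. Clover libraries had 14, 23 and 16 counts, Z18fl 107, 99 and 112, Z18trunc 26, 32 and 45, and Z18truncZnFmut 40, 30 and 58. The Z18fl libraries lay above all others in CPM, and Z18trunc overlapped Clover. The fitted log2 fold change against Clover was 1.74 ± 0.24 for Z18fl and 0.14 ± 0.34 for Z18trunc. For Z18truncZnFmut it was 0.62 ± 0.34 (edgeR adjusted p = 0.24), or 0.34 without replicate 3 (edgeR adjusted p = 0.62). Uniquely mapping reads made up 455 of its 602 counts.

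Of the 509 elements, 6 passed the filter on low counts for Z18fl against Clover, 5 of HERVL18-int and 1 of LTR18B. Over all loci tested, 28.3% were called higher. Calls of the HERVL18-int elements are not given, since the Z18fl libraries entered their choice. Beside the chromosome 2 locus, these elements were at ZCCHC4, NIHCOLE, chromosome 9 and chromosome 22. The elements at ZCCHC4 and NIHCOLE passed the filter only through their Z18fl counts, so they had to differ and are given by their values alone. HERVL18-int at chr4:25360246-25360874, in an intron of ZCCHC4, which encodes an RNA methyltransferase, had 2, 1 and 0 counts with Clover and 19, 23 and 16.7 with Z18fl. HERVL18-int at chr5:104187762-104188618, in an intron of the lncRNA gene NIHCOLE, had 4, 2 and 2 counts with Clover and 30, 16 and 23 with Z18fl. At both, every Z18fl library lay above every Clover library, which the filter and the choice favour, so nothing is read from it. HERVL18-int at chr9:7788736-7791036, between genes, had 8, 14 and 12 counts with Clover and 46, 30 and 46 with Z18fl, a fitted log2 fold change of 0.99 ± 0.33.

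The LTR18B element at chr10:80152519-80153122, in an exon of the annexin gene ANXA11, had 18, 8 and 17 counts with Clover and 41, 33 and 37 with Z18fl. Its log2 fold change of 0.53 ± 0.33 did not pass the test (edgeR adjusted p = 0.19), and passed at 0.88 with aligned fragments as library sizes (edgeR adjusted p = 0.036). HERVL18-int at chr22:34324531-34325577, between genes, had 14, 9 and 8 counts with Clover and 24, 19 and 25 with Z18fl, a fitted log2 fold change of 0.28 ± 0.38. For Z18trunc against Clover, 5 elements passed the filter. Of these, the LTR18B element on chromosome 10 was not called (edgeR adjusted p = 0.48), where 22.5% of loci were called higher. The LTR18B element at chr6:28353865-28354395 had 5, 7 and 6 counts with Clover and 14, 19 and 13 with Z18trunc. It relied on its Z18trunc counts to pass the filter, so it is given by its values alone. For Z18truncZnFmut against Clover, 0 of 4 elements were called, where 12.3% of loci were called higher. None of these 4 had an unadjusted p under 0.05 in edgeR. Between Z18truncZnFmut and Z18trunc, 6 elements passed the filter. The LTR18B element on chromosome 10 was not called there (edgeR adjusted p = 0.49), where 0.719% of all loci were called in either direction. The LTR18B element on chromosome 6 had 12, 6 and 11 counts with Z18truncZnFmut, and again relied on its Z18trunc counts to pass.

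Adjoining HERVL18-int and LTR18 elements within 1000 bases on a strand were summed into units, a grouping chosen after the values were seen and used without a test. The 509 elements formed 286 units, of which 72 held both internal and LTR pieces, 172 were LTRs alone and 42 internal pieces alone. The 6 highest units held 49.1% of all 5236.5 counts. Units were ordered by the mean of the group mean CPM, which favours units high with any construct. How often other repeats separate the constructs was not counted, so nothing is read from how many units do.

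On chromosome 2, the unit at chr2:78105751-78112413 had 14, 23 and 20 counts in Clover, 115, 105 and 125 with Z18fl, 33, 35 and 49 with Z18trunc and 40, 32 and 62 with Z18truncZnFmut. On chromosome 9, the unit at chr9:7785466-7791928, flanked by LTR18B and between genes, had 20, 25 and 25 counts in Clover, 92, 68 and 82 with Z18fl, 32, 50 and 49 with Z18trunc and 41, 54 and 51 with Z18truncZnFmut. In both, every Z18fl library lay above every other library in CPM.

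The unit in NIHCOLE, at chr5:104186177-104189485, had 10, 9 and 15 counts in Clover, 69, 68 and 70 with Z18fl, 30, 30 and 35 with Z18trunc and 41, 30 and 34 with Z18truncZnFmut. The unit in ZCCHC4, at chr4:25358630-25361736, had 8, 3 and 2 counts in Clover, 72, 72 and 79 with Z18fl, 31, 36 and 31 with Z18trunc and 14, 17 and 21 with Z18truncZnFmut. In the ZCCHC4 unit the 4 constructs did not overlap in CPM, at 0.256 ± 0.196 with Clover, 0.748 ± 0.150 with Z18truncZnFmut, 1.37 ± 0.104 with Z18trunc and 3.11 ± 0.0313 with Z18fl. That order was not kept in every piece of the unit. HERVL18-int at chr4:25360246-25360874 had 1, 2 and 0 counts with Z18truncZnFmut against 2, 1 and 0 with Clover. LTR18A at chr4:25361356-25361736 had 0, 1 and 1 against 1, 2 and 1. Other pieces of the unit are not given singly. In the NIHCOLE unit Z18trunc and Z18truncZnFmut overlapped, between Clover and Z18fl.

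**Figure D2:**
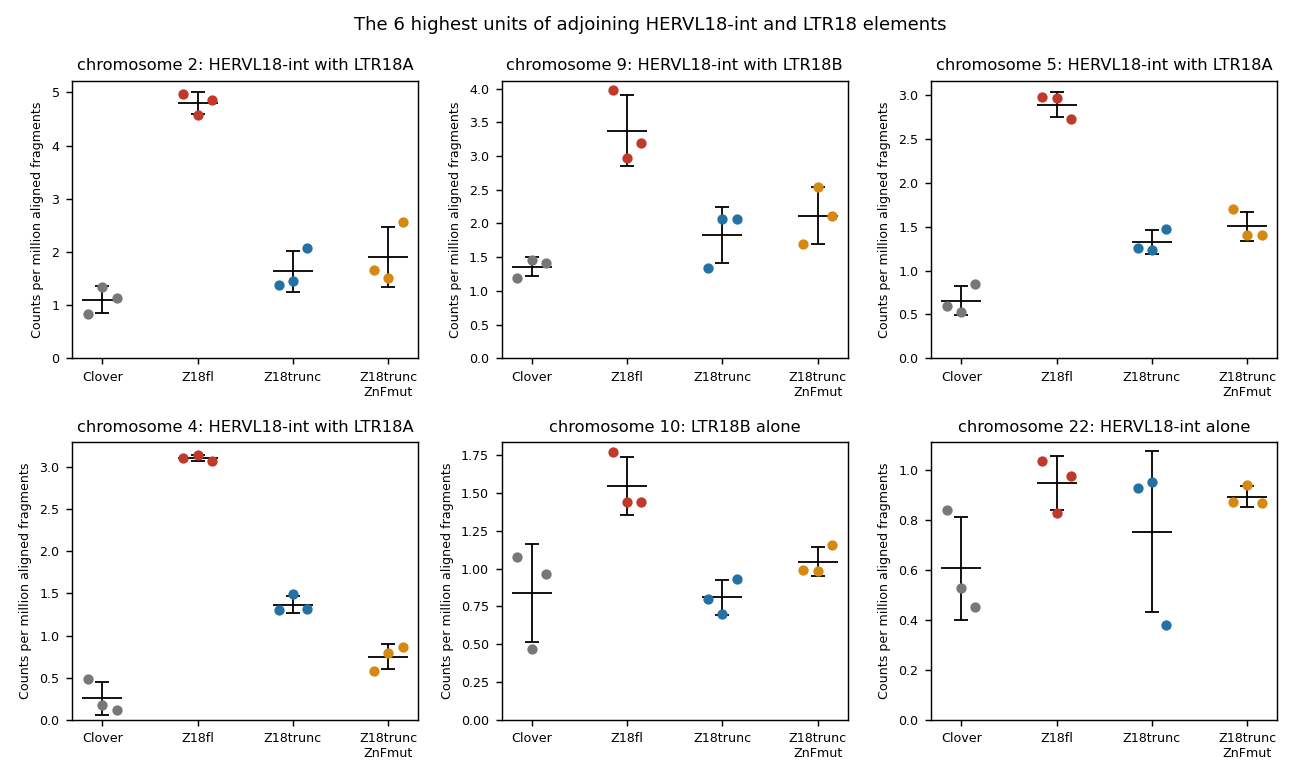
CPM (counts per 1000000 aligned fragments, linear axis) of the 6 highest units of adjoining HERVL18-int and LTR18 elements, by construct. Points are libraries, long dashes the mean and bars the SD over 3 libraries. In the units on chromosomes 2, 9, 5, 4 and 10 every Z18fl library lay above every other library. The share of all repeats separated this way was not counted, so nothing is read from that number of units. On chromosome 22 Z18fl overlapped each of the others, and the Z18truncZnFmut libraries lay above those of Clover.

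The host genes of the chromosome 2 and chromosome 5 proviruses hold many LINE elements, retrotransposons without LTRs, transcribed on the same strand. In ENSG00000227088, 18 other repeats of that strand had at least 50 counts over the 12 libraries. Against Clover, most of these did not pass the filter on low counts. Apart from L1PA7, those that did had under 10 counts in every Clover library. They passed only through the constructs where they are high, so their calls are not counted and they are given by their values alone. The highest of the 18 was L1PA7 at chr2:78160870-78162333, with 12.2, 8 and 12 counts in Clover, 107, 82 and 106.7 with Z18fl, 106, 65.9 and 79 with Z18trunc and 56.7, 37 and 52.9 with Z18truncZnFmut. The log2 fold change of L1PA7 against Clover was 2.35 ± 0.27 for Z18fl (edgeR adjusted p = 1.6e-06) and 2.14 ± 0.30 for Z18trunc (edgeR adjusted p = 1.9e-05). L1M1, the next by counts, had 1, 2 and 4 counts in Clover and 54, 47 and 29 with Z18trunc. L1PBa had 7, 4 and 6 against 36, 27 and 34, and L1PA14 5, 4 and 3 against 33, 35 and 25. Not all neighbours rose with Z18trunc. MER57-int, of the LTR class, had 6, 2 and 6 counts in Clover and 7, 10 and 3 with Z18trunc. The log2 fold change of the HERVL18-int element of the same gene was 0.14 for Z18trunc. The difference between it and these neighbours was not tested.

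Summed over the gene, LINE elements had 3.29 ± 0.601 CPM (SD, n = 3) in Clover, 17.2 ± 3.31 with Z18fl, 15 ± 1.16 with Z18trunc and 11.2 ± 2.47 with Z18truncZnFmut, with Z18fl and Z18trunc overlapping. The HERVL18-int and LTR18 elements there had 1.11 ± 0.254, 4.80 ± 0.203, 1.63 ± 0.378 and 1.91 ± 0.571 CPM in the same order, without overlap between Z18fl and Z18trunc. HERVL18-int was chosen for that difference, so its separation is not independent of the choice and nothing is read from it. The remaining repeats of the gene had 2.14 ± 0.0345, 5.30 ± 0.545, 4.44 ± 0.565 and 4.51 ± 0.454 CPM, with Z18fl and Z18trunc overlapping. In NIHCOLE, whose neighbours were added after the values were seen, LINE elements had 1.14 ± 0.0425, 7.62 ± 1.53, 7.92 ± 1.07 and 5.63 ± 0.655 CPM, and the HERVL18-int and LTR18 elements 0.658 ± 0.169, 2.89 ± 0.143, 1.33 ± 0.132 and 1.50 ± 0.167. The remaining repeats of NIHCOLE had 1.81 ± 0.0522, 3.56 ± 0.760, 3.18 ± 0.134 and 3.43 ± 0.562 CPM. HUERS-P3-int (LTR class) had 6, 7 and 9 counts in Clover, 11, 17 and 19 with Z18fl and 8, 8 and 10 with Z18trunc. In ZCCHC4, also added, the 26 other repeats had 0.659 ± 0.191 CPM in Clover and 0.753 ± 0.0276 with Z18fl, and overlapped between all constructs.

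**Figure D3:**
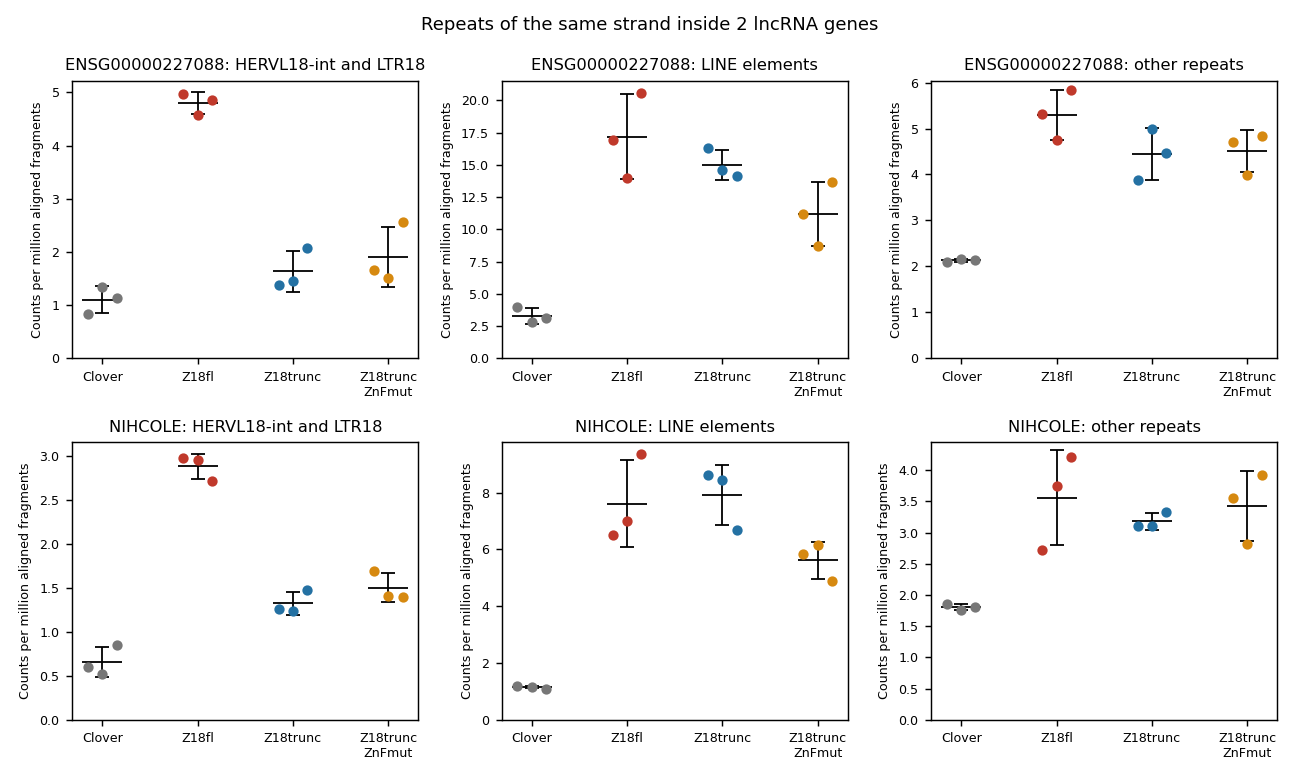
CPM (counts per 1000000 aligned fragments, linear axis) of HERVL18-int and LTR18, of LINE elements and of other repeats on the strand of ENSG00000227088 and NIHCOLE, by construct. Points are libraries, long dashes the mean and bars the SD over 3 libraries. LINE elements and other repeats overlapped between Z18fl and Z18trunc in both genes, and HERVL18-int and LTR18 elements did not. HERVL18-int was chosen for that difference, so its separation is not independent of the choice and nothing is read from it.

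More HERVL18-int reads lay on the strand opposite the element than on its own strand, except with Z18fl. Over all elements of the 6 classes, reads on the strand of the element were 55.4% to 64.0% of counts in the 12 libraries. Reads on the strand of the element were 26.8% ± 4.04 (SD, n = 3) of HERVL18-int counts in Clover, 54.2% ± 1.49 with Z18fl, 37.2% ± 3.06 with Z18trunc and 39.0% ± 3.07 with Z18truncZnFmut, or 37.3% in the last without replicate 3. The opposite strand had 16.8 ± 0.701 CPM in Clover, 16.7 ± 1.03 with Z18fl, 16.0 ± 0.337 with Z18trunc and 19.6 ± 6.86 with Z18truncZnFmut (15.7 without replicate 3), and the constructs overlapped with Clover. The HERVL18-int element at chr1:168264567-168270596, between genes, held 1063.57 of these opposite-strand counts, at 4.14 CPM in Clover and 4.34 with Z18fl. By gene context, introns on the same strand held 39.8% ± 5.11 of HERVL18-int counts in Clover, 61.5% ± 2.75 with Z18fl, 52.1% ± 3.03 with Z18trunc and 43.8% ± 6.62 with Z18truncZnFmut (47.3% without replicate 3).

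Among the ERVL family's internal parts, chosen by name, HERVL18-int had the highest log2 fold change of 19 for Z18fl against Clover. That rank is not independent of its choice, which used the Z18fl libraries. Of the other 18, 3 were called higher and 4 lower, beside 20.1% of all subfamilies called in each direction, and their median was 0.27 against -0.01 over all subfamilies. MER21-int, HERVL-int and ERVL-B4-int rose by 0.73 ± 0.16, 0.57 ± 0.069 and 0.42 ± 0.083, and MER68-int, the lowest, was at -1.16 ± 0.095 (edgeR adjusted p = 1.5e-07). For Z18trunc against Clover HERVL18-int was 8th of 19, and of the other 18, 1 was called higher, ERVL-B4-int at 0.31 ± 0.096 (edgeR adjusted p = 0.020), beside 14.5% of all subfamilies, and 4 lower, beside 11.9%. For Z18truncZnFmut 0 of 18 were called in edgeR, with 4 at an unadjusted p under 0.05, beside 1.3% of all subfamilies called higher. Ranks against Z18fl are not given, since HERVL18-int was chosen for its difference from those libraries.

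**Figure D4:**
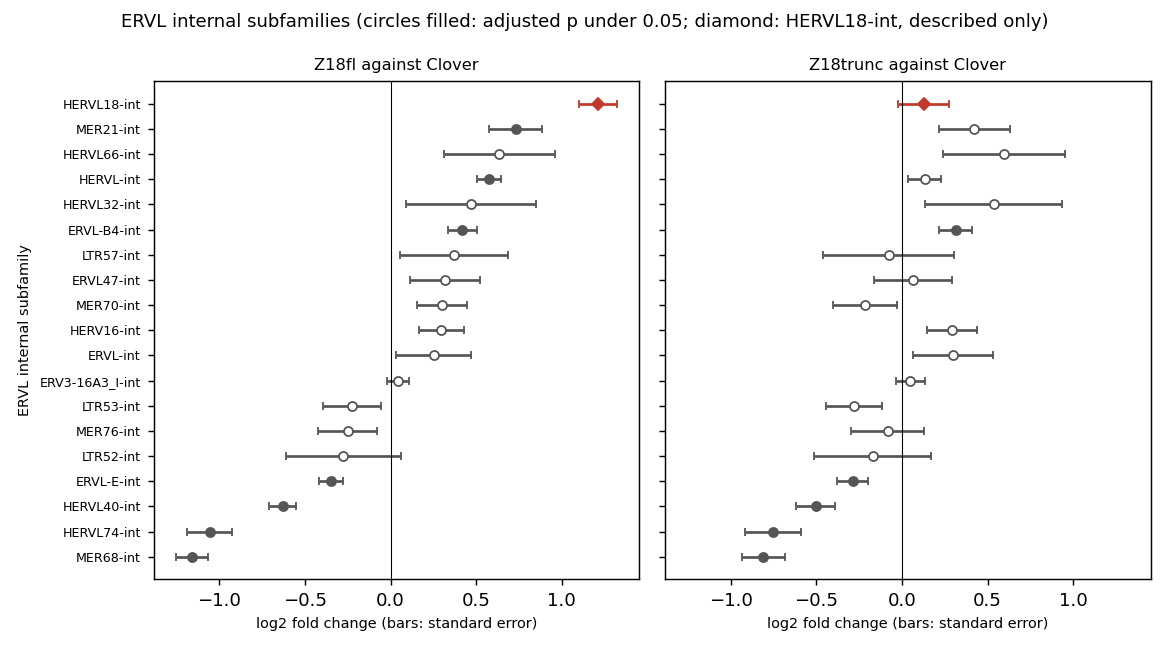
Log2 fold change against Clover of the 19 ERVL internal subfamilies, for Z18fl (left) and Z18trunc (right), with bars for the standard error. Filled circles had an edgeR adjusted p under 0.05. The red diamond is HERVL18-int, given without a test, at 1.21 for Z18fl and 0.13 for Z18trunc.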

How the data were processed

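Anti-V5 PAR-CLIP libraries of A375 cells, 3 for each of 4 constructs, were grouped by their titles. Per the labels, the libraries were ribo-depleted and stranded. The authors trimmed reads (the submitters' processing notes name cutadapt 4.6 and hg38) and assigned them to repeat elements with SQuIRE, giving each library its own table. Deposited counts are the uniquely mapping reads, the reads aligned anywhere on an element and the aligned fragments. The deposited totals are expected counts, in which SQuIRE adds a share of each multimapping read by expectation maximization, so reads of near-identical copies may be split between them. A deposited score sets the expected count, as a percent, against every read that aligns to that element. Each element's name carries its divergence from the consensus, another deposited score. The authors' FPKM values were not used.

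Same-strand expected counts were added up by subfamily or kept for each locus, for the LTR, LINE, SINE, DNA, RC and Retroposon classes, and rounded, which left 1473121 loci. They were tested with edgeR 4.0.16 (R 4.3.3; quasi-likelihood, TMM, filterByExpr at a count of 10 and a total of 15), each comparison on its own 6 libraries. A feature was called at an adjusted p-value under 0.05 (Benjamini-Hochberg over every feature tested). The alternatives were DESeq2 1.42.0, library sizes from aligned fragments, no filter, either strand, unique reads, all 12 libraries, a replicate block, each library left out, and the highest locus left out.

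Gene context came from GENCODE release 44 (exonic: at least 50% of the element in exons of its strand). Element coordinates fitted within the hg38 chromosomes. Starts are counted from 1. LTR pairs were aligned with Biopython 1.88. Loci to name were the 10 highest by mean of the group mean CPM, then further called loci, and, for the highest locus, the repeats of its gene with at least 50 counts. Members and lists were chosen with earlier results of these data known. Tests of HERVL18-int on the Z18fl or Z18trunc libraries were run as planned, but their p-values and calls are not given, since those libraries entered its choice. Both fits were also run on simulated data in which 200 features changed. The simulation gave every feature the same fixed spread, not estimated from these libraries, and did not mimic Z18truncZnFmut replicate 3. For Z18fl against Clover they recovered 83% of 2-fold and 100% of 4-fold changes among 915 subfamilies, and 22% and 82% among 12098 loci. For Z18truncZnFmut against Clover the fits recovered 75% and 100% among 921 subfamilies, and 30% and 95% among 10152 loci. PCR reads are not independent molecules here.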

Additional observations from a re-analysis of the deposited data

Results flagged for a closer look

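LTR18B reads on the strand opposite the element, which no comparison above used, were higher in CPM with Z18trunc than with the control in every library. Z18trunc had 4.95 CPM on average (5.43, 4.72 and 4.71 in its libraries) against 3.88 in Clover (3.42, 4.56 and 3.68). Opposite-strand counts over all elements of the 6 classes were also higher with Z18trunc, at 741963, 808497 and 891893 against 460271, 431576 and 436547 in Clover. LTR18B held 129, 114.3 and 111.4 of them with Z18trunc and 57, 78 and 65 in Clover. As shares of these totals, the Z18trunc and Clover libraries overlapped. The difference was not tested.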

How the results depend on the processing

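For HERVL18-int, the fitted value for Z18fl against Clover stayed above 0 under each alternative run, from 0.20 (either strand) to 1.68 (aligned fragments). For Z18trunc against Clover, library sizes from aligned fragments gave 0.62 and reads on either strand -0.33. Aligned fragments moved Z18truncZnFmut to 1.07 against Clover (edgeR adjusted p = 0.14), 0.45 against Z18trunc and -0.61 against Z18fl. Either strand gave -0.38 for Z18truncZnFmut against Clover. For Z18truncZnFmut against Z18trunc, unique reads gave -0.0078 and all 12 libraries -0.012. Without the highest locus the described difference of Z18trunc from Z18fl was -0.98. The cause of these changes was not tested. With aligned fragments as library sizes, LTR18A turned to 0.33 for Z18trunc, 0.64 for Z18truncZnFmut and 0.31 for Z18truncZnFmut against Z18trunc, and LTR18B to 0.40 for Z18fl, 0.072 for Z18trunc, 0.59 for Z18truncZnFmut and 0.19 for Z18truncZnFmut against Z18fl. Unique reads turned LTR18A to 0.026 for Z18truncZnFmut against Z18trunc and LTR18B to 0.032 for Z18fl, and either strand turned LTR18A to -0.16 for Z18fl and LTR18B to -0.043 for Z18truncZnFmut against Z18trunc. At single loci, LTR18B on chromosome 10 turned to -0.053 (all 12 libraries, Z18truncZnFmut), HERVL18-int on chromosome 22 to -0.015 (unique reads, Z18fl) and, for Z18trunc, to 0.0031 (DESeq2), 0.32 (aligned fragments), 0.32 (no filter) and 0.082 (either strand). With all 12 libraries the Z18trunc values were -0.036 on chromosome 2 and -0.11 on chromosome 9.

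With reads on either strand, the highest locus held 4.64%, 12.2%, 5.61% and 5.92% of HERVL18-int counts in Clover, Z18fl, Z18trunc and Z18truncZnFmut, the 5 highest 11.7%, 24.0%, 15.9% and 15.5%, and the 10 highest 14.6%, 32.1%, 21.3% and 19.4%. By unique reads the 10 highest held 58.6% with Z18fl. By unique reads the CPM was 4.29 with Clover, 15.5 with Z18fl and 7.09 with Z18trunc. Scaled to 1000000 element counts with TMM factors it was 162 with Clover, 376 with Z18fl, 178 with Z18trunc and 177 with Z18truncZnFmut.

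Leaving out 1 library at a time, the HERVL18-int log2 fold change ranged over 1.12 to 1.28 for Z18fl against Clover, 0.06 to 0.20 for Z18trunc against Clover, 0.03 to 0.27 for Z18truncZnFmut against Clover and 0.0083 to 0.14 for Z18truncZnFmut against Z18trunc, and by description over -1.17 to -1.05 for Z18trunc and -1.11 to -0.94 for Z18truncZnFmut against Z18fl. At the chromosome 9 locus, Z18fl against Clover was 0.78 without Clover replicate 1 and 0.96 without Clover replicate 3. The elements at ZCCHC4 and NIHCOLE were below the filter without either of 2 of the Z18fl libraries. Values that changed sign ranged over -0.21 to 0.016 for LTR18A (Z18truncZnFmut against Z18trunc), -0.19 to 0.33 for LTR18B on chromosome 10 (Z18truncZnFmut against Clover), -0.21 to 0.30 for HERVL18-int on chromosome 22 (Z18trunc against Clover), -0.10 to 0.41 for HERVL18-int on chromosome 2 (Z18trunc against Clover), -0.16 to 0.31 for HERVL18-int on chromosome 9 (Z18trunc against Clover).

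Same-numbered libraries did not all deviate together (correlations over 729 subfamilies from -0.27 to 0.69, 5 of 12 correlating best with their own number), so they were not taken as pairs. With the replicate block, HERVL18-int was at 1.21 for Z18fl, 0.13 for Z18trunc and 0.14 for Z18truncZnFmut against Clover and 0.04 for Z18truncZnFmut against Z18trunc, and the block changed no call of a subfamily or locus tested here. The block moved the number of subfamilies called higher for Z18truncZnFmut against Clover from 12 to 0. Other settings gave 41 (DESeq2), 31 (aligned fragments), 5 (no filter), 7 (unique reads) and 68 (all 12 libraries) there. With aligned fragments the subfamilies called higher went from 184 to 494 for Z18fl and from 134 to 418 for Z18trunc. Of loci, 3424 were called higher for Z18fl against Clover, 5138 without a filter and 5170 with all 12 libraries, and for Z18trunc 2969 and 4754 without a filter, while for Z18truncZnFmut 1245 became 826 by unique reads and 2723 with all 12 libraries. Between Z18truncZnFmut and Z18trunc, 62 loci higher and 59 lower became 22 and 17 with the replicate block and 30 and 184 with aligned fragments, and 1 subfamily was called, with all 12 libraries in the fit. Low counts limit the loci, where 22% of simulated 2-fold changes were recovered for Z18fl against Clover.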
